A study of Mus musculus with 292 samples.

Results

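Rora, Pou4f1, Calb2 and Rgs16 are 4 genes whose RNA marks neurons of the thalamus, the habenula and some other brain regions, and they were followed across whole-brain RNA of 292 mice. All probes annotated to these genes were taken, which gave 4 probes, 1 per gene, of the 23549 probes analysed, and the table named 10835 genes in all. The mice were F2 females and males of a reciprocal intercross of C57BL/6J with C3H/HeJ. Chow with 4% fat was fed until 8 weeks of age and was followed by 12 weeks on a Western diet (42% fat, 0.15% cholesterol), and the mice were killed at 20 weeks after fasting for 12 h. Each array set the RNA of 1 brain against 1 common pool made from all brains, and the values are log10 ratios of mouse over pool, so a value of 0 is the pool's level. The labels state neither the log base nor which channel is divided by which. The direction is likely mouse over pool, because the titles and dyes are given in that order and because 65.7% of the 236 most variable probes had mean linear ratios nearer 1 when read that way. Of all pairs of arrays 3.39% correlated below -0.3 (median r 0.109), and the direction was kept because the labels give every array the same dyes. Turning the sign of every value would leave all correlations below as they are and would turn every statement of higher or lower. No mouse had a treatment, sex or cross label of its own, so the arrays formed 1 group, split only by mouse number, up to 212 (151 mice) or from 213 (141 mice), and by a spelling difference in the description text among the lower numbers (74 mice of form 1 and 77 of form 2).

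Rora encodes the nuclear receptor ROR alpha, which drives thalamic and cerebellar Purkinje cell development and also acts in the circadian clock. Pou4f1 encodes the POU homeodomain factor Brn3a, which is needed for the gene programme of the medial habenula and of sensory neurons. Calb2 encodes calretinin, a calcium buffer of interneurons, of cerebellar granule cells and of some thalamic and habenular neurons. Rgs16 encodes a protein that speeds GTP hydrolysis by G alpha subunits and so shortens signals from G protein-coupled receptors, and its RNA is known from thalamic relay nuclei. The habenula is a small epithalamic nucleus that relays forebrain input to the midbrain, and the thalamus relays sensory and motor input to the cortex. In RNA of whole brain, fewer cells of a type and less RNA per cell cannot be told apart.

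The bases before the start sites of 3 of the 4 genes were taken from RefSeq (GRCm38.p6). They are shown because Rora and Pou4f1 moved together across mice while a mixture fit split the mice by Rgs16 into levels. Each run is 250 bases long, reads 5′ to 3′ on the gene's strand and has its CG dinucleotides in capitals.
Rora (chr9:68653536-68653785, plus strand): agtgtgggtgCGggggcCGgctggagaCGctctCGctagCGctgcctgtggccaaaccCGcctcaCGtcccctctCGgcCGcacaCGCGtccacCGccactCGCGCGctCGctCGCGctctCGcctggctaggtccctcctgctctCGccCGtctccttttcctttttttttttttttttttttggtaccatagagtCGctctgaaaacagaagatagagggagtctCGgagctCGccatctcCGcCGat
Pou4f1 (chr14:104468000-104468249, minus strand): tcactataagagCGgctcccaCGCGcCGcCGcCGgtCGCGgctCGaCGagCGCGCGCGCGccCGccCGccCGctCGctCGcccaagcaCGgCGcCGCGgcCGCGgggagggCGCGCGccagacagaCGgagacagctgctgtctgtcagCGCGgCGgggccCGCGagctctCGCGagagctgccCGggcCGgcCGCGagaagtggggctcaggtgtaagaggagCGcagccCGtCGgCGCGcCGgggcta
Rgs16 (chr1:153740103-153740352, plus strand): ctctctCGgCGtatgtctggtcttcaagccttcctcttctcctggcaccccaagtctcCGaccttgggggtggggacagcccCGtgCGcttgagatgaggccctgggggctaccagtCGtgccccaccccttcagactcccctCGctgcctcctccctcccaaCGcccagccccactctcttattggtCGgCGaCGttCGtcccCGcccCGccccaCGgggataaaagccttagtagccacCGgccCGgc
The Pou4f1 window held 47 CG dinucleotides, more than 99.8% of 32851 such windows, the Rora window held 26 and the Rgs16 window 17, against a median of 6 over all windows. Their G and C contents were 78%, 61.2% and 66.4%, against a median of 52.4%. None of 5 motifs, searched on both strands with overlaps allowed, was found in the 3 windows. These were the E-box CACGTG (present in 6.02% of all windows), the ROR element core AGGTCA (14%), the POU4 core ATTAAT (4.39%), the TCF/LEF core CTTTGA (13.8%) and the cAMP response element core TGACG (17.8%).

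All 4 genes varied more between mice than the median probe, whose SD was 0.0495. Rora ran from -0.195 to 0.215 with a median of -0.0124, an SD of 0.0703 and 126 of 292 mice above the pool. Pou4f1 ran from -0.249 to 0.285 with a median of -0.0265 and an SD of 0.0828. Calb2 had the narrowest spread of the 4, with an SD of 0.0558, a median of 0.00597 and a range from -0.251 to 0.153. The 3 lowest Calb2 brains all had numbers up to 212 and stood apart from the rest in the plot of values by mouse. Rgs16 had the widest spread, with an SD of 0.113 at the 94.7th percentile of all probes, a median of -0.0603 and a range from -0.348 to 0.320. As linear ratios, the 95th percentile of mice stood 1.72-fold above the 5th for Rora, 1.91-fold for Pou4f1, 1.48-fold for Calb2 and 2.43-fold for Rgs16.

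**Figure D1:**
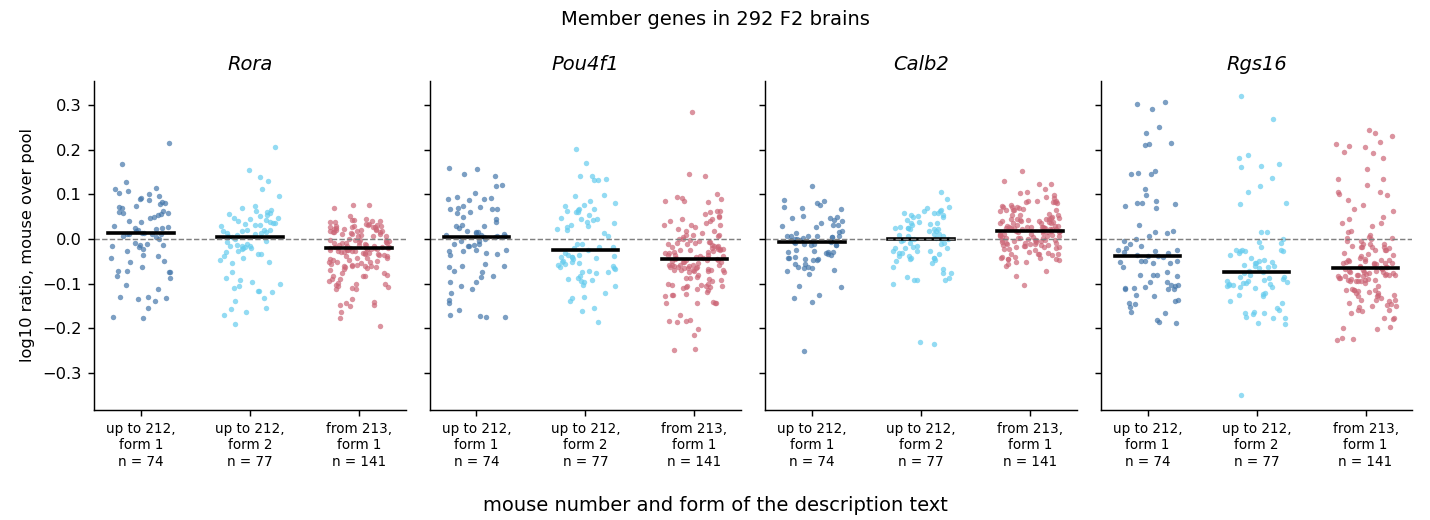
Log10 ratio of mouse over pool (y axis) for each member gene in every brain (1 point per mouse), by mouse number and form of the description text (x axis, with n). Black bars are medians; Rora and Pou4f1 had lower medians and Calb2 a higher median in the mice from 213, while Rgs16 had a tail of high mice in each set.

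Between the 2 sets of mouse numbers 3 of the 4 genes differed. In mice up to 212 the Rora median was 0.0115 (lowest -0.191, highest 0.215), and in mice from 213 it was -0.0209 (lowest -0.195, highest 0.0770). The ranges overlapped, and the mean was lower by 0.0274 ± 0.00806 (log10, SE) in the later mice (limma, Benjamini-Hochberg adjusted over 23549 probes, adjusted p = 0.00147). Pou4f1 had medians of -0.0106 and -0.0444, overlapping ranges and a difference of -0.0357 ± 0.00945 (limma adjusted p = 0.000406). Calb2 went the other way, with medians of -0.00326 and 0.0188 and a difference of 0.0298 ± 0.00630 (limma adjusted p = 8.86e-06). Rgs16 had medians of -0.0536 and -0.0641, and its difference of -0.0124 ± 0.0130 did not pass (limma adjusted p = 0.404). Such differences were common, with 30.6% of all probes higher and 36.1% lower in the later mice. The steps were small, 1.07-fold for Rora, 1.09-fold for Pou4f1 and 1.07-fold for Calb2. Between the forms of the description text none of the 4 genes passed (limma adjusted p from 0.461 to 0.981), beside 0.599% of probes higher and 0.696% lower. The Y-linked gene Eif2s3y had a median of -1.65 in form 1 and 0.281 in form 2 among the lower numbers, and -0.0631 in the mice from 213. The labels do not say what the numbers and the forms stand for. The fits below take out the mean of each form among the lower numbers, with no such term among the mice from 213. If the forms follow sex, the slopes compared between the sets of numbers differ in whether sex was taken out, which was not tested.

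Rora and Pou4f1 tended to be high in the same brains. All relations between genes were computed on values with the mean of each of the 3 sets of mice taken out, over 6 pairs. Rora and Pou4f1 had Pearson r = 0.483 and Spearman rho = 0.50 over 292 mice (100000 permutations within sets, p = 1e-05 for each, the smallest they can give). It was 0.514 in the 151 mice up to 212 and 0.449 in the 141 mice from 213, each with a permutation p of 1e-05, and 0.475 without the 2 mice farthest in Rora. In the limma fit over all probes Pou4f1 rose by 0.0399 ± 0.00424 log10 units per SD of Rora (adjusted p = 7.77e-17), and the difference between its slopes in the 2 sets of numbers, 0.00847 ± 0.00931, did not pass (limma adjusted p = 0.48). With Rora fitted on Pou4f1, the slope was lower in the later mice by 0.0155 ± 0.00724, which did not pass (limma adjusted p = 0.0754). That difference passed with arrays scaled to equal spread (-0.0226, limma adjusted p = 0.0117) and among the mice of form 1 (-0.0204, limma adjusted p = 0.0421).

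**Figure D2:**
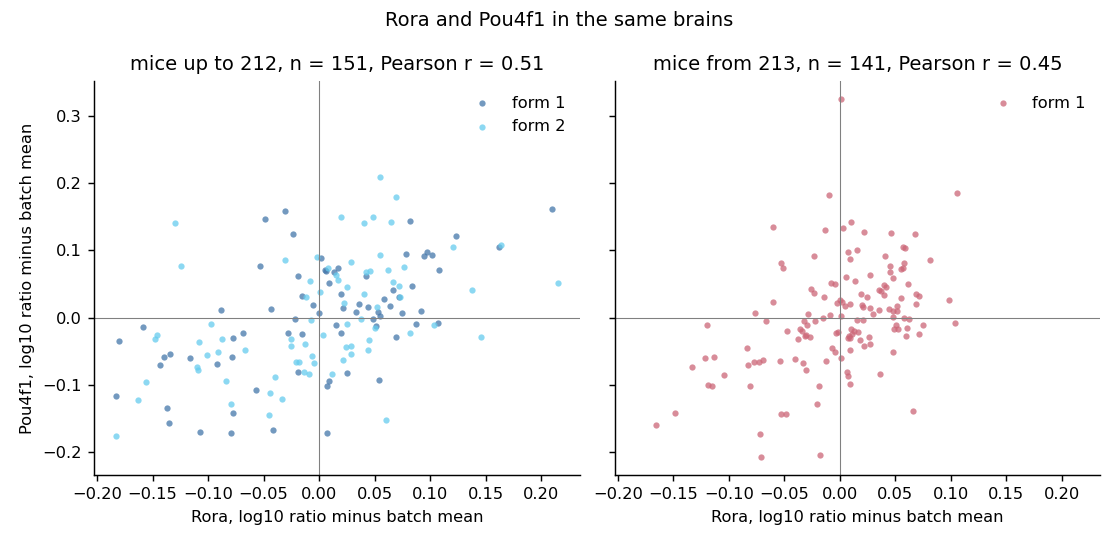
Rora (x axis) against Pou4f1 (y axis), both as log10 ratio minus the mean of the mouse's set, 1 point per mouse, in mice up to 212 (left, 2 forms coloured) and from 213 (right). Both panels slope upward, with r = 0.514 and 0.449.

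The pair shared much of its variation with the rest of the array, and many probes followed either gene. Among all probes the r of Pou4f1 with Rora stood at percentile 98.45, and that of Rora with Pou4f1 at percentile 95.2. Slopes of either direction were called for 56.7% of probes on Rora and 61.9% on Pou4f1. The first 5 principal components of all probes (12.3%, 8.59%, 6.33%, 3.67% and 2.99% of the variance) held 48.3% of the variance of Rora, 65.1% of Pou4f1, 23.4% of Calb2 and 44.4% of Rgs16. With these components as terms, an alternative added after the data were seen, Rora and Pou4f1 kept a smaller r of 0.194 (limma adjusted p = 0.00553 over fits on Rora and 0.0435 over fits on Pou4f1). With 10 components r was 0.169, called over fits on Rora (limma adjusted p = 0.0232) but not over fits on Pou4f1 (0.109). Such components can hold cell composition, RNA quality and genotype alike, and their part in the relation was not tested.

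Calb2 and Rora were not related beyond the error, with r = -0.0577 over 292 mice (permutation p = 0.35; limma adjusted p = 0.41) and rho = -0.123 (permutation p = 0.037). The sign of that r turned with 5 components (0.0623) and in the mice of form 2 (0.0167). Calb2 and Pou4f1 were weakly opposed, with r = -0.186 (permutation p = 0.00156; limma adjusted p = 0.00298) and rho = -0.236 (permutation p = 5e-05). The opposition was -0.211 in mice up to 212 (permutation p = 0.0104) and -0.152 in mice from 213 (permutation p = 0.0724), and it was -0.0129 with 5 components (limma adjusted p = 0.945).

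By a mixture fit Rgs16 fell into a lower and an upper level, so no r over all mice is given for it. A mixture of normal curves of equal width placed 241 mice around -0.0772 and 51 mice around 0.167, a step of 1.75-fold, with an SD of 0.0661 within each level. In each of the 3 sets both levels were present, with 19 of 74, 12 of 77 and 20 of 141 mice in the upper one. The levels touched, since 23 mice had less than 0.9 probability of belonging to either, and a single skewed curve was not fitted. Pou4f1 rose with Rgs16 among the 241 lower mice (r = 0.251, rho = 0.293, permutation p = 0.00014 and 1e-05; limma adjusted p = 0.000257). Among the 51 upper mice r was -0.0876 (permutation p = 0.558). Calb2 was opposed to Rgs16 among the lower mice (r = -0.225, rho = -0.241, permutation p = 0.0005 and 0.00021; limma adjusted p = 0.00257), with r = -0.125 among the upper mice. Rora had r = 0.142 among the lower mice (permutation p = 0.0265; limma adjusted p = 0.0501) and -0.315 among the upper (permutation p = 0.0367; limma adjusted p = 0.108).

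**Figure D3:**
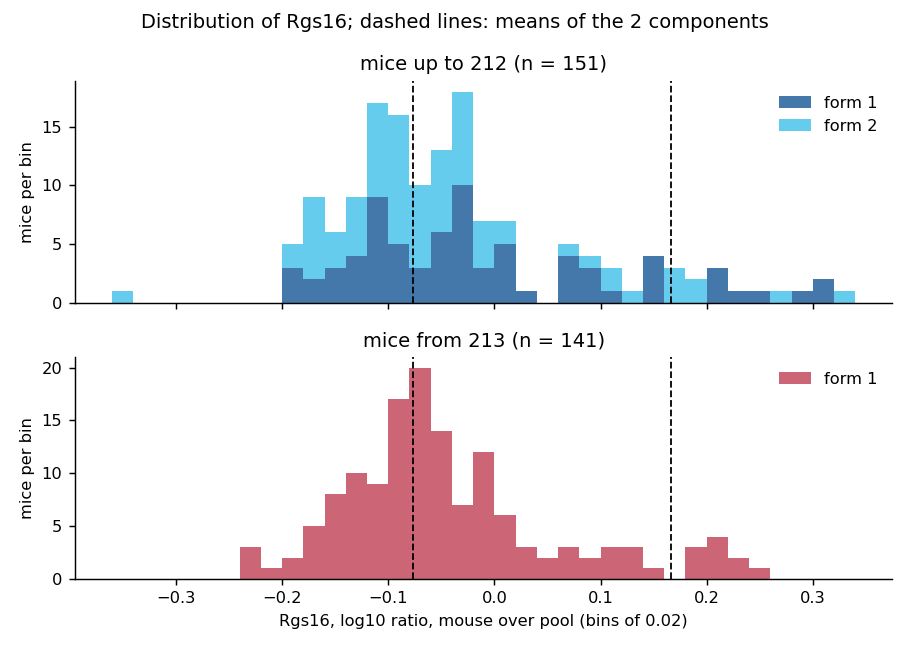
Number of mice (y axis) per bin of 0.02 in the log10 ratio of Rgs16 (x axis), in mice up to 212 (top, 2 forms stacked) and from 213 (bottom). Dashed lines are the means of the lower and upper levels, -0.0772 and 0.167; both panels show a main peak and a thinner group of high mice.

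Among thalamic markers Rora was followed most closely by Slc17a6, which encodes the vesicular glutamate transporter VGLUT2 of thalamic relay neurons. Over all probes 22.6% had a called positive and 34.2% a called negative slope on Rora (limma adjusted p under 0.05), so a call alone says little. Of the other 3 members 1 was called, Pou4f1, with a positive slope. The 6 genes with the highest r in the weaker of the 2 sets of numbers were Slc17a6 (0.790 in mice up to 212 and 0.631 in mice from 213), Abcd2 (0.734 and 0.704), Dnajc8 (0.717 and 0.691), Dnajc28 (0.768 and 0.615), Lrrtm3 (0.726 and 0.642) and Pik3ca (0.668 and 0.673). Abcd2 moves very long-chain fatty acids into peroxisomes, Lrrtm3 is a synaptic adhesion protein, and Pik3ca is a catalytic subunit of phosphoinositide 3-kinase. All 6 were called in both sets, which their choice by the weaker r made certain, so these calls are a description. Positive calls were given to 20.0% of probes in mice up to 212 and 24.6% in mice from 213. The choice also favours like slopes. None of the 6 slopes differed between the sets (limma adjusted p from 0.111 to 0.962), beside 44.6% of probes whose slopes did. With 5 components Abcd2 kept r = 0.659, Slc17a6 0.548 and Pik3ca 0.543, beside 15.4% of probes with a positive and 14.5% with a negative call.

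The genes most opposed to Rora in both sets were Carns1, which makes the dipeptide carnosine (-0.689 and -0.721), Pigq, of glycosylphosphatidylinositol anchor synthesis (-0.621 and -0.684), and Kansl1, of a histone acetyltransferase complex (-0.595 and -0.759). All 3 had called negative slopes, and each slope differed between the sets. In mice up to 212 alone the highest values were those of Rrm2b (0.846), Cpd (0.826) and Bmpr1b (0.817), a receptor for bone morphogenetic proteins, and in mice from 213 these genes had 0.392, 0.305 and 0.119. In the later mice the highest were Rgs7bp (0.723), Cntn1 (0.717) and Abcd2. Of the 20 strongest named genes of the lower numbers 19 had a positive r in the later mice and 16 were called there, with a median r of 0.352. Of the 20 strongest of the later mice 16 were called in the earlier ones, with a median of 0.390.

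Thalamic markers went both ways with Rora and most habenular markers fell, and neither list was tested as a set. Of 19 thalamic marker genes 16 were measured, of which 4 rose with Rora (Slc17a6, the RNA editing enzyme gene Adarb1, Shox2 and Lhx9) and 3 fell (Tnnt1, Synpo2 and Plekhg1). Their median r was 0.0375, beside -0.0469 over the 10834 other named genes, of which 2378 had positive and 3799 negative calls. Adarb1 had r = 0.364, 0.530 with 5 components, and its slope was steeper in the earlier mice. The transcription factor gene Tcf7l2, a defining thalamic marker, had r = -0.0751 (limma adjusted p = 0.273), and Prkcd had 0.109. Of 15 habenular markers 11 were measured, 2 rose with Rora and 8 fell, with a median of -0.246. Lrrc55 rose (r = 0.433) and Wif1, a secreted Wnt inhibitor, fell (r = -0.440). Slc18a3, which encodes the vesicular acetylcholine transporter, was itself split into levels and had r = -0.239 and -0.496 with Rora within its 247 lower and 45 upper mice. With 5 components 0 of the 11 habenular genes had a positive and 2 a negative call. Of the 16 thalamic genes 7 then had a positive and 2 a negative one. Beside these, 15.4% of all probes had a positive and 14.5% a negative call with 5 components.

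Rora is also a clock factor, acting on the promoter of Arntl. Of 16 clock genes 15 were measured, of which 4 rose with Rora (Per1, Nr1d2, Per2 and Bhlhe41) and 4 fell. Over all probes 22.6% had positive and 34.2% negative calls on Rora, so these counts are not particular to the clock list. Nr1d2, a repressor that competes with ROR proteins, had r = 0.360, but 0.546 in mice up to 212 and -0.0179 in mice from 213, a difference between slopes that passed (limma adjusted p = 4.03e-05). Per1 had r = 0.387 and -0.0744 with 5 components. Among other nuclear receptors 20 of 24 were measured, and 7 rose and 6 fell, beside the same shares of all probes. Ppara, a receptor for fatty acids, had 0.426, or 0.518 with 5 components.

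Pou4f1 was followed most closely by genes that are not habenular markers. Over all probes 26.2% had a called positive and 35.7% a called negative slope on Pou4f1. Of the other 3 members Rora and Rgs16 were called positive and Calb2 negative. The small Maf transcription factor gene Maff had r = 0.945 in mice up to 212 and 0.756 in mice from 213, and Fgf17, a fibroblast growth factor, had 0.895 and 0.638. Elavl1, which encodes an RNA-stabilising protein, had 0.784 and 0.775. Abca7 (0.739 and 0.756), Rhobtb2 (0.731 and 0.737), Ccdc50 (0.725 and 0.734) and the proteasome subunit gene Psma4 (0.718 and 0.729) completed the 6 genes most alike in both sets with Maff and Elavl1. All 6 were called in both sets, which their choice by the weaker r made certain, so these calls are a description. Positive calls were given to 23.1% of probes in the earlier and 25.8% in the later mice. Between the sets 4 of the 6 slopes differed, beside 40.3% of all probes. Otud4 (-0.654 and -0.645), Abi2 (-0.646 and -0.643) and Slc30a4 (-0.616 and -0.668) were the most opposed. The highest in the earlier mice alone also included Taf7l2 (0.861, then 0.341), and those in the later mice Spr (0.773, after 0.342) and the chaperone gene Calr (0.761, after 0.422).

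Most of these relations lay in the leading components. With 5 components only 1.19% of probes had a positive and 1.25% a negative call on Pou4f1. Abca7, Rhobtb2, Ccdc50 and Psma4 then had r from 0.0148 to 0.156 and no call. Fgf17 (0.698), Maff (0.655) and Elavl1 (0.327) kept theirs (limma adjusted p = 2.40e-39, 1.16e-32 and 4.98e-06).

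Among 11 measured habenular markers 2 rose with Pou4f1 and 7 fell, beside 26.2% of all probes with positive and 35.7% with negative calls. Their median r was -0.189, beside -0.0375 over all named genes. Lrrc55 had r = 0.697 and Chrna5, a nicotinic receptor subunit gene, had 0.379. Chrna3 and Chrnb4, which lie beside Chrna5 and encode subunits typical of the medial habenula, had -0.309 and -0.302. Wif1 (-0.390) and Slc5a7 (-0.386), the choline transporter gene, also fell. With 5 components 0 of the 11 habenular genes had a call in either direction. Only 1.19% of all probes had a positive and 1.25% a negative call there, so 0 calls say little. Lrrc55 had r = 0.0764 with 5 components (limma adjusted p = 0.549). Of the 16 thalamic genes 4 rose and 3 fell, with a median of -0.00120, and Adarb1 alone was called with 5 components (0.253). So without the components more of the habenular genes fell than rose with Pou4f1, and the list was not tested as a set.

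Other groups around Pou4f1 were mixed, beside 26.2% of all probes with positive and 35.7% with negative calls on it. All 7 measured POU factor genes had r above 0, and 3 of 7 were called. Pou3f2 had r = 0.414, Pou3f4 had 0.317, and Pou3f3, split into levels of its own, had 0.268 within its 255 lower and -0.0121 within its 37 upper mice. With 5 components 0 of the 7 were called. Of 15 clock genes 4 rose and 7 fell: Per1 had r = 0.568, Tef -0.438 and Arntl -0.407, and with 5 components 0 of the 15 were called. Of 7 microglial genes 2 rose and 1 fell, and Trem2, a lipid receptor of microglia, had 0.368 and 0.240 with 5 components.

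With 5 components many of the genes most strongly related to Pou4f1 lay on 1 chromosome. The strongest, Fgf17 (chromosome 14) and Maff (chromosome 15), did not. Pou4f1 lies on chromosome 14, yet 32 of the 50 named genes most strongly related to it with 5 components lay on chromosome 9, which held 5.67% of the named genes. This pattern was chosen after its values were seen, and it was absent without the components. There chromosome 9 held 4 of the 50 strongest genes. Of its 614 genes 367 (59.8%) were called there, beside 6615 of all 10834. With 5 components 80 of 614 measured genes of chromosome 9 (13.0%) were called, against 2.59% of all 10834 named genes. The next chromosome, 15, had 3.8%. Of the 281 named genes called in all, 80 were thus on chromosome 9 and the others elsewhere. On chromosome 14 itself 2 of 364 genes (0.549%) were called, Fgf17 among them. The excess on chromosome 9 with 5 components was also seen in each set of mice. Of the 50 strongest genes 27 lay there in mice up to 212 and 23 in mice from 213. On this chromosome 43 genes were called in the earlier mice, where 1.14% of all named genes were, and 45 in the later, where 1.78% were. Of the 43, 41 had the same sign in the later mice and 25 were called there with that sign, and of the 45, 42 had the same sign in the earlier mice.

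The called genes on chromosome 9 went both ways, 37 up and 43 down, and clustered along it. By gene order in RefSeq (GRCm38.p6), the 100 genes from the 201st had 23 calls and the 100 from the 301st had 22, against 7 in the first 100 and 2 in the 100 from the 501st. The adhesion molecule gene Clmp (163rd in order) had r = -0.599 in mice up to 212 and -0.534 in mice from 213, and Bco2, a carotenoid-cleaving enzyme gene (228th), had -0.542 and -0.519. Spa17 (134th) had -0.606 and -0.422, Alg9 (235th) -0.536 and -0.447, and the serotonin-gated channel gene Htr3a (220th) -0.374 and -0.564. Cyp11a1, whose enzyme starts steroid synthesis (283rd), had -0.483 and -0.467. Lrrc49 (296th) went up with 0.568 and 0.410, and Parp3 (466th) with 0.420 and 0.468. Without the components r was -0.517 for Bco2, -0.388 for Htr3a, -0.340 for Cyp11a1, -0.223 for Alg9, -0.133 for Clmp, 0.150 for Parp3 and 0.119 for Lrrc49. Spa17 changed sign, with 0.163. Rora lies on the same chromosome (337th) and had 0.234 and 0.0808. For the other 3 members the chromosome with most calls with 5 components had 34.1% (Rora, chromosome 4), 22.8% (Calb2, chromosome 18) and 42.5% (Rgs16, chromosome 10), and the lowest had 27.4%, 15.3% and 29.4%.

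**Figure D4:**
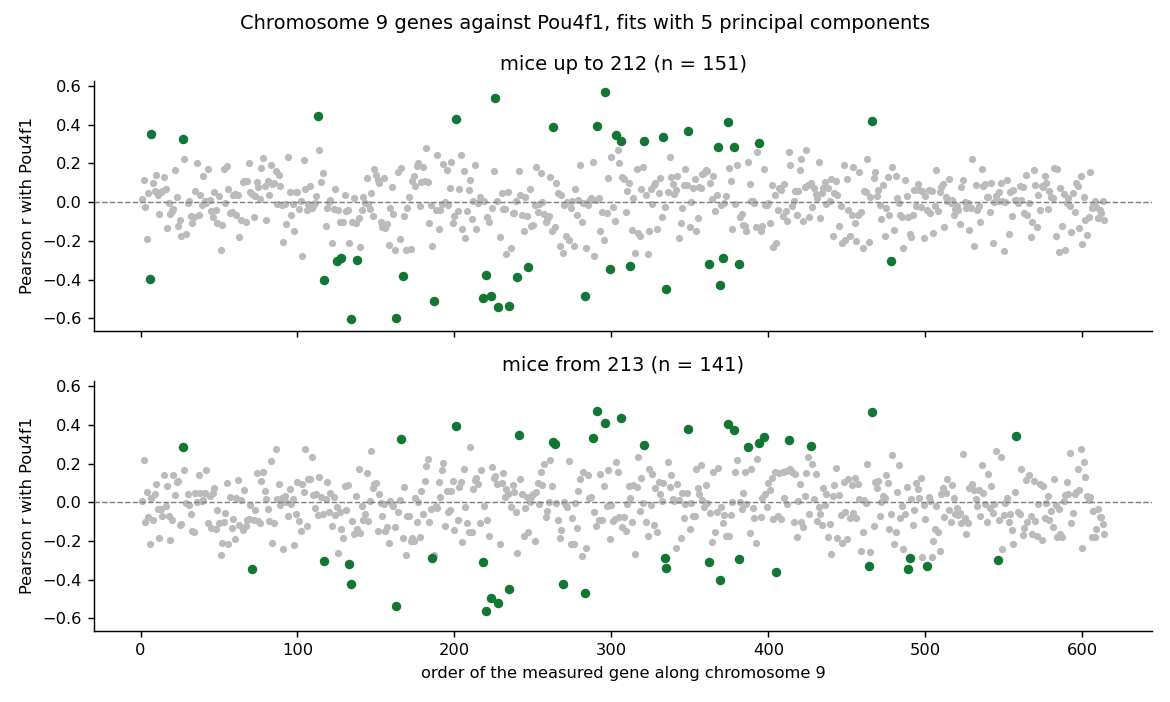
Pearson r with Pou4f1 in fits with 5 principal components (y axis) for 614 genes of chromosome 9 in their order along it (x axis), in mice up to 212 (top) and from 213 (bottom). Green points are genes called at a limma adjusted p under 0.05 in that set, 43 above and 45 below; they are densest from about the 101st to the 400th gene in both panels.

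Calb2 moved with cerebellar genes over all mice, while 0 of the thalamic or habenular markers had a positive call with it. The difference between these lists was not tested. Over all probes 22.1% had a called positive and 28.2% a called negative slope on Calb2, and of the other 3 members Pou4f1 and Rgs16 were called negative. Of 15 cerebellar markers 11 were measured, of which 9 rose with Calb2 and 0 fell, with a median r of 0.314 beside -0.0115 over all named genes. Cbln1, a synaptic organiser released by granule cells, had r = 0.517, and Gabra6, a receptor subunit gene of granule cells, had 0.478. The hindbrain patterning gene En2 had 0.406, and the Purkinje cell genes Ppp1r17, Slc1a6 and Pcp2 had 0.362, 0.314 and 0.293. Calb1 (0.00306) and Zic1 (-0.0200) were not called. With 5 components again 9 of 11 rose, with a median of 0.406, beside 8.73% of all probes with a positive and 8.78% with a negative call.

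The cerebellar counts differed between the sets of mice, and the difference for the list was not tested. In mice up to 212 9 of 11 cerebellar genes rose and 0 fell (median 0.382), and in mice from 213 4 rose and 3 fell (median -0.0151). The slope of Gabra6 on Calb2 was lower by 0.0880 log10 units per SD in the later mice (limma adjusted p = 9.84e-07), with r = 0.589 and 0.155, and that of Cbln1 by 0.0285 (limma adjusted p = 0.0105), with 0.583 and 0.371, still called in the later mice (limma adjusted p = 0.000127). In fits with 5 components Slc1a6 had 0.557 and 0.436 and Ppp1r17 had 0.664 and 0.340. For comparison 17.7% of all probes had a slope on Calb2 that differed between the sets. Each of the other members had a lower median with the cerebellar list: 0.0872 for Rora, 0.0432 for Pou4f1 and 0.0101 for Rgs16 among its lower mice. With 5 components 9 of the 11 also rose with Rora, with a median of 0.194. The difference between these medians was not tested.

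**Figure D5:**
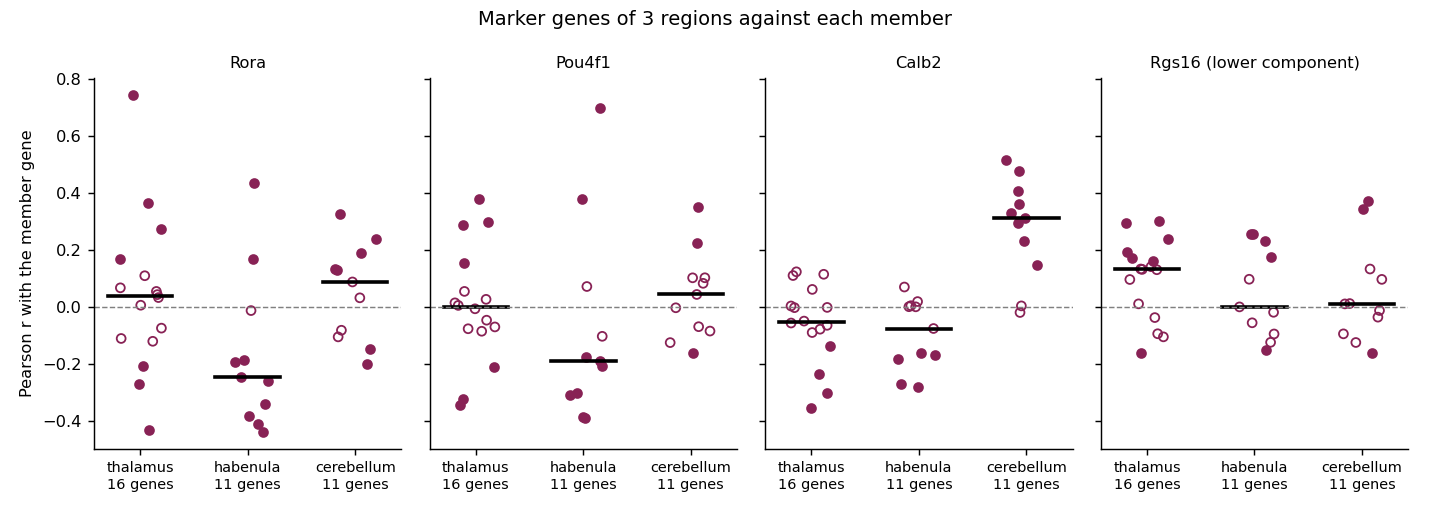
Pearson r with each member (y axis) for the measured marker genes of thalamus, habenula and cerebellum (x axis, 1 point per gene), over 292 mice and, for Rgs16, over its 241 lower mice. Filled points were called at a limma adjusted p under 0.05 and bars are medians; the cerebellar genes stand high for Calb2 (median 0.314) and the habenular genes low for Rora and Pou4f1 (-0.246 and -0.189).

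The genes most like Calb2 in both sets of mice were Taldo1 (0.582 and 0.582), an enzyme of the pentose phosphate pathway, Arfgap2 (0.643 and 0.527), Il20rb (0.491 and 0.490), Poc5 (0.499 and 0.480), the respiratory complex I gene Ndufv1 (0.464 and 0.463) and Ctsd (0.456 and 0.483), the lysosomal protease cathepsin D. All 6 were called in both sets, which their choice by the weaker r made certain, so these calls are a description. Positive calls were given to 19.6% of probes in the earlier and 15.2% in the later mice. None of the 6 slopes differed between the sets (limma adjusted p from 0.089 to 0.913), which the choice also favours. All 6 were also called with 5 components, where Il20rb had 0.562. Pdcd5 (-0.515 and -0.527), Rbis (-0.513 and -0.525) and Sem1 (-0.461 and -0.465) were the most opposed. Gabrd, a receptor subunit gene of cerebellar granule cells, led the earlier mice (0.650, then 0.351) with Anxa9 (0.634, then 0.20). Tsen34 led the later mice (0.597, after 0.0891), followed by Taldo1 and Pcbp1 (0.562, after -0.0684). Of the 20 strongest genes of the earlier mice 11 were called in the later ones, with a median r of 0.230, and of the 20 strongest of the later mice 8 were called in the earlier, with a median of 0.0865.

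Thalamic and habenular markers had no positive call with Calb2 over all mice, and with 5 components only Tcf7l2 (0.294) and Cacna1g (0.256) had. Over all probes 22.1% had positive and 28.2% negative calls on Calb2. Of 16 thalamic genes 0 rose and 4 fell, with a median of -0.0537. Among the 4 were Synpo2 (r = -0.355), Adarb1 (-0.304) and Shox2 (-0.237). The last 2 differed between the sets, with -0.422 and 0.0275 for Adarb1 and -0.415 and 0.123 for Shox2. Of 11 habenular genes 0 rose and 5 fell, with a median of -0.0764, led by Lrrc55 (-0.282), Chrna5 (-0.272) and Tac2 (-0.182), a tachykinin precursor gene. Among calcium-binding proteins 3 of 11 rose and 3 fell, with the calmodulin genes Calm2 (-0.323) and Calm3 (-0.317) lowest and the neuronal calcium sensor gene Vsnl1 (0.305) highest. The clock genes Per1 (-0.288), Dbp (-0.222) and Nr1d2 (-0.188) were among 5 of 15 that fell.

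The 6 genes most like Rgs16 were called with it within each of its levels. They were chosen by their r with Rgs16 in these same mice, which favours such calls, so the calls are a description. Over all probes 28.4% had a called positive and 23.4% a called negative slope on Rgs16, and among its 241 lower mice 22.0% and 20.6%. Of the other 3 members Pou4f1 was called positive and Calb2 negative in both fits. The 6 genes most alike in both sets of numbers were Lmnb1 (r = 0.640 within the lower and 0.850 within the upper level of Rgs16), Phf1 (0.603 and 0.805), Taf8 (0.584 and 0.788), Stk32c (0.680 and 0.715), Unc79 (0.611 and 0.676) and Gpr182 (0.520 and 0.685). Taf8 belongs to TFIID, which starts transcription by RNA polymerase II, Phf1 an accessory protein of Polycomb repression, Lmnb1 the nuclear envelope protein lamin B1, and Unc79 part of a sodium leak channel complex. The opposed genes were Nsg1 (-0.748 and -0.386), Gabarapl1 (-0.685 and -0.299), an autophagy gene, and Thoc3 (-0.466 and -0.534), of messenger RNA export. Within the upper level Thoc3 was called (limma adjusted p = 0.00549), and Nsg1 and Gabarapl1 were not (0.101 and 0.215). In that level 457 of 23548 probes had a positive and 206 a negative call.

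Taf8, Phf1 and Gpr182 were themselves split into levels, and their high mice were largely those of Rgs16. Of 44 mice in the upper level of Taf8, 38 were in the upper level of Rgs16, which is 86.4% of the former and 74.5% of the latter. For Phf1 29 of 31 mice were shared (93.5% of its own and 56.9% of those of Rgs16), and for Gpr182 44 of 64 (68.8% and 86.3%). Within the 248 lower and 44 upper mice of Taf8 its r with Rgs16 was 0.644 and 0.756, and within those of Phf1 0.715 and 0.729. The 4 genes lie on chromosomes 1, 17, 17 and 10, and these overlaps were chosen after the values were seen. Taf8, Phf1 and Gpr182 were named for a high r with Rgs16, which favours such overlaps. Slc18a3, named from the habenular list and also split into levels, shared 14 of its 45 upper mice with Rgs16.

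The 6 companions of Rgs16 were called in each set of numbers, which their choice by the weaker r made certain. Positive calls were given to 31.4% of probes in mice up to 212 and 19.1% in mice from 213. Of the 20 strongest named genes of the earlier mice 20 were called in the later, and of the 20 strongest of the later 19 were called in the earlier. Their slopes rose by 0.134 ± 0.00450 log10 units per SD of Rgs16 for Taf8, 0.168 ± 0.00563 for Phf1 and 0.0971 ± 0.00324 for Lmnb1. The slope differed between the sets for 2 of the 6, Taf8 and Gpr182, beside 33.0% of all probes. Plch2 was the second highest in the later mice and had 0.675 and 0.581 within the levels of Rgs16. With 5 components all 6 kept positive calls, beside 16.5% of probes with a positive and 17.9% with a negative call.

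Among its lower mice Rgs16 had positive calls for 22.0% and negative calls for 20.6% of all probes. It went up with 6 of 16 thalamic genes there and down with 1, with a median r of 0.132 beside 0.0237 over all named genes. The calcium channel gene Cacna1g, which carries thalamic burst firing, had 0.293, Slc17a6 0.238 and Zfhx3 0.193. With 5 components over all mice 8 of the 16 rose and 3 fell. Of 11 habenular genes 4 rose (Lrrc55, Tac2, Chrna5 and Slc18a3) and 1 fell, with a median of -0.000500. Of 11 other RGS genes 1 rose (Rgs14, 0.208) and 3 fell, among them Rgs17 (-0.350), whose slope turned positive with 5 components. Immediate early genes, which mark recent neuronal firing, had 5 of 11 positive and 0 negative calls, with 0.457 for Nr4a1 and 0.273 for Egr1. Of 15 clock genes 5 rose and 2 fell, with 0.267 for Per2, 0.191 for Bhlhe40 and 0.175 for Bhlhe41.

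The slopes of Rgs16 on Rora and Pou4f1, but not that on Calb2, had a called difference between the sets of numbers. Slopes that differed were found for 44.6% of all probes on Rora, 40.3% on Pou4f1, 17.7% on Calb2 and 33.0% on Rgs16. Such a call is thus not particular to the members. The slope on Rora was higher by 0.0376 ± 0.0145 log10 units per SD in the later mice (limma adjusted p = 0.0249). With Rora fitted on Rgs16 that call was lost (0.0172 ± 0.00820, limma adjusted p = 0.0927). The slope on Pou4f1 was higher by 0.0467 ± 0.0125 (limma adjusted p = 0.0012), and by 0.0376 ± 0.00895 with Pou4f1 fitted on Rgs16 (limma adjusted p = 0.000453). In the later mice Rgs16 rose by 0.0587 ± 0.00720 per SD of Pou4f1 (limma adjusted p = 3.38e-12), and in the earlier mice the slope was 0.0155 ± 0.00956 (limma adjusted p = 0.169). These slopes pool both levels of Rgs16. By ranks the 2 genes were related in the earlier mice too (rho = 0.231, permutation p = 0.00467), beside rho = 0.515 in the later mice (permutation p = 1e-05). For Calb2 the difference of 0.00654 ± 0.0139 did not pass (limma adjusted p = 0.807).

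Without the components, genes beside each member were called about as often as all probes. Of the 5 measured genes on either side, 7 of 10 were called with Rora, 7 of 10 with Pou4f1, 6 of 10 with Calb2 and 5 of 10 with Rgs16, near the 56.7%, 61.9%, 50.3% and 51.8% of all probes called in either direction. The median r was -0.0642 for Rora, -0.0717 for Pou4f1 and -0.0108 for Calb2, and the median slope on Rgs16 was 0.00646 log10 units per SD. The next measured gene after Rora, Ice2, had r = 0.496, and 0.315 with 5 components. Lmo7 had 0.584 with Pou4f1 and Slitrk1 -0.502. With 5 components 4 of 10 neighbours were called with Rora, 0 with Pou4f1, 4 with Calb2 and 2 with Rgs16. Beside these, 29.9%, 2.44%, 17.5% and 34.4% of all probes were called there. Hydin (0.387) and Mtss2 (-0.382) beside Calb2 were called in both fits. Near Rgs16 the immediate early gene Ier5 had a slope of 0.0207 log10 units per SD (limma adjusted p = 9.01e-08), and 0.0261 with 5 components.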

How the data were processed

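The deposited values are read here as log10 ratios of mouse over pool, 1 per probe and array. The base was taken from the values, which end at -2 and 2, and the direction is likely but not stated. Per the labels' protocols, column-purified, DNase-treated RNA was amplified and labelled with Cy3 (mouse) or Cy5 (pool), with no dye swap. How the authors scanned and normalized the arrays is not given in the sources used here. Signal over background is unknown, and the number of arrays limits the precision. Probes with over 5% missing values (25 of 23574) were left out and the means of their probes replaced 252 missing values.

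The 4 members, the gene lists and the tests were chosen with earlier results of these data known. For each member, every other probe was fitted on the standardised member with the 3 sets of mice as terms (limma 3.58.1, R 4.3.3) and p-values were adjusted over 23548 probes (Benjamini-Hochberg). The fits were tested on simulated data. Named genes were, per member, the 6 highest and 3 lowest by the weaker r of both sets of mouse numbers, the 3 highest in each set, and those with the largest statistics in the region, clock and own lists. Where a gene had several probes, the one with the largest SD stood for it. Mixtures used mclust 6.1.1, with a gain in BIC over 10, a gap over 3 SD and a share of at least 5% required. Alternatives were other batch terms, centring, scaling, ranks, weights and subsets of mice, and, added later, 5 or 10 principal components and the levels of Rgs16.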

Additional observations from a re-analysis of the deposited data

Results flagged for a closer look

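The slopes below differed between mice from 213 and mice up to 212 by a test of the difference itself (interaction term, limma adjusted p under 0.05 over 23548 probes), and they are given as the later minus the earlier slope in log10 units per SD of the member. The share of all probes that differed was 44.6% for Rora, 40.3% for Pou4f1, 17.7% for Calb2 and 33.0% for Rgs16, so such a difference is not particular to these genes. Between members the slope of Rgs16 differed by 0.0376 on Rora and 0.0467 on Pou4f1, and with Rora fitted on Rgs16 the first was not called (limma adjusted p = 0.0927). On Rora the slopes of Carns1 (-0.0131), Pigq (-0.0149), Kansl1 (-0.0702), Tnnt1 (0.0166), Adarb1 (-0.033), Wif1 (-0.0126), Calb1 (-0.0146), Nr1d2 (-0.0348), Tef (-0.0208) and Rxrb (0.0106) differed. Those of Rrm2b (-0.0591), Cpd (-0.0581), Bmpr1b (-0.0582), Rgs7bp (0.0297) and Cntn1 (0.0401) also did, but these genes were named for a high r in 1 set alone, so their difference is a description. On Pou4f1 the slopes of Elavl1 (-0.0174), Maff (-0.0192), Abca7 (-0.0161), Ccdc50 (-0.0244), Adarb1 (-0.0288), Ptpn4 (-0.0107), Plekhg1 (-0.0125), Lrrc55 (-0.0211), Slc5a7 (-0.00974), Csf1r (0.0246), Per1 (-0.0274), Tef (-0.0161), Arntl (0.0319) and Pou3f3 (-0.0261) differed. Those of Spr (0.0319) and Calr (0.0419) also did, but these genes were named for a high r in 1 set alone, so their difference is a description. On Calb2 the slopes of Pdcd5 (-0.013), Adarb1 (0.0369), Shox2 (0.0439), Cbln1 (-0.0285) and Gabra6 (-0.088) differed. Those of Anxa9 (-0.0282), Tsen34 (0.0408) and Pcbp1 (0.0232) also did, but these genes were named for a high r in 1 set alone, so their difference is a description. On Rgs16 the slopes of Taf8 (0.042), Gpr182 (0.026) and Adarb1 (-0.0201) differed. On Calb2 the cerebellar genes Cbln1 and Gabra6 had lower and the thalamic genes Adarb1 and Shox2 higher slopes in the later mice.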

How the results depend on the processing

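Results that changed with the processing are given with their values, and the cause was not tested beyond what each setting fixes (fewer mice or fewer probes). The number of called probes without alternatives was 13358 for Rora, 14583 for Pou4f1, 11845 for Calb2 and 12198 for Rgs16, and the pooled slopes of Rgs16 were 0.00789 on Rora, 0.0365 on Pou4f1 and -0.0216 on Calb2. In mice up to 212, Pearson r was -0.0758 for Csf1r with Pou4f1 and -0.0684 for Pcbp1 with Calb2. The slope (log10 per SD) was -0.00369 for Rora and Rgs16 and 0.0155 for Pou4f1 and Rgs16 there. In mice from 213, the number of called probes was 7617 for Calb2. Pearson r was -0.152 for Pou4f1 and Calb2, -0.0179 for Nr1d2 with Rora, 0.0275 for Adarb1 with Calb2 and 0.123 for Shox2 with Calb2 there. The slope (log10 per SD) was 0.0264 for Rora and Rgs16 and -0.0144 for Calb2 and Rgs16 there. The list median (r) was -0.0151 for cerebellum with Calb2 there. Among the 74 mice of form 1 up to 212, the number of called probes was 7048 for Rora, 9197 for Pou4f1 and 5414 for Calb2. Pearson r was -0.257 for Pou4f1 and Calb2, -0.00771 for Csf1r with Pou4f1 and -0.0113 for Pcbp1 with Calb2 there. The slope (log10 per SD) was -0.00543 for Rora and Rgs16 and 0.0214 for Pou4f1 and Rgs16 there. Among the 77 mice of form 2, the number of called probes was 7446 for Rora, 8636 for Pou4f1, 4234 for Calb2 and 6324 for Rgs16. Pearson r was 0.0167 for Rora and Calb2, -0.168 for Pou4f1 and Calb2, -0.131 for Csf1r with Pou4f1 and -0.118 for Pcbp1 with Calb2 there. The slope (log10 per SD) was -0.00194 for Rora and Rgs16, 0.00994 for Pou4f1 and Rgs16 and -0.00546 for Calb2 and Rgs16 there. With no term for the sets, Pearson r was -0.0545 for Pcbp1 with Calb2. With arrays scaled to equal spread, the slope difference between the sets was -0.00694 for Calb2 and Rgs16. With only the more variable probes, of which fewer were tested, the number of called probes was 6374 for Rora, 7390 for Pou4f1, 5892 for Calb2 and 6698 for Rgs16. The list median (slope) was 0.017 for habenula with Rgs16 there. Within the upper level of Rgs16, the slope (log10 per SD) was -0.0222 for Rora and Rgs16, -0.00632 for Pou4f1 and Rgs16 and -0.00916 for Calb2 and Rgs16. Within the upper level of Rgs16, the number of called probes was 663 for Rgs16. With 5 principal components, the number of called probes was 7049 for Rora, 575 for Pou4f1, 4123 for Calb2 and 8105 for Rgs16. Pearson r was 0.0623 for Rora and Calb2, -0.0129 for Pou4f1 and Calb2, -0.0765 for Lrrc55 with Rora, -0.0744 for Per1 with Rora, 0.00274 for Abi2 with Pou4f1, 0.00499 for Slc30a4 with Pou4f1, 0.0394 for Plekhg1 with Pou4f1, -0.113 for Csf1r with Pou4f1, -0.0219 for Per1 with Pou4f1, -0.045 for Pou3f2 with Pou4f1, -0.0379 for Pou3f3 with Pou4f1 and 0.0356 for Shox2 with Calb2 there. The slope (log10 per SD) was 0.0209 for Rora and Rgs16, -0.00718 for Pou4f1 and Rgs16, -0.00697 for Calb2 and Rgs16, -0.000511 for Tac2 with Rgs16, -0.00222 for Slc18a3 with Rgs16, -0.0102 for Lrrc55 with Rgs16 and 0.0149 for Rgs17 with Rgs16 there. With 10 principal components, the number of called probes was 5784 for Rora, 554 for Pou4f1, 1997 for Calb2 and 6106 for Rgs16. Pearson r was 0.0982 for Rora and Calb2, -0.0408 for Pou4f1 and Calb2, 0.0999 for Slc18a3 with Rora, -0.0875 for Per1 with Rora, 0.083 for Rxrb with Rora, 0.0375 for Plekhg1 with Pou4f1, -0.104 for Csf1r with Pou4f1, -0.0303 for Per1 with Pou4f1, 0.0494 for Arntl with Pou4f1, -0.0794 for Pou3f3 with Pou4f1, 0.0514 for Nr1d2 with Calb2 and 0.000907 for Calm3 with Calb2 there. The slope (log10 per SD) was -0.0217 for Rora and Rgs16, -0.0139 for Pou4f1 and Rgs16, 0.00154 for Calb2 and Rgs16, -0.0106 for Tac2 with Rgs16, -0.00236 for Lrrc55 with Rgs16, -0.00925 for Bhlhe41 with Rgs16 and 0.00118 for Rgs17 with Rgs16 there. For the cerebellar list the median r with Rora was 0.276 and the median slope on Rgs16 was -0.0132 there.

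Of 382 main comparisons under an alternative, 330 kept their direction and side of the threshold, and of 1386 for single named genes, 1233 did and 115 kept their direction but lost the call. The r of Rora and Pou4f1 kept its direction under the 11 alternatives counted for it, and its call over fits on Rora. With 10 principal components the call was lost over fits on Pou4f1 (r = 0.169, limma adjusted p = 0.109). Outside that count, r was 0.51 and called among the lower mice of Rgs16. Among its upper mice r was 0.356 and not called over fits on Rora (limma adjusted p = 0.0662). The calls and directions of the differences of the 4 members between the sets of mouse numbers held under the 4 alternatives run for them. Each member had 1 probe, so the mean of several probes, single other probes and the agreement of probes could not be run. No paired analysis was possible because the arrays form 1 group. Signal over background was not used here, so no limit from dim spots can be given.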

Other observations

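Markers of other brain regions and cells also moved with the members. With Rora 6 of 9 measured myelin genes fell, led by the gap junction gene Gjb1 (r = -0.562), the oligodendrocyte factor Sox10 (-0.455) and Cnp (-0.40), and 1 rose (Mobp, 0.136). With 5 components 3 of the 9 fell and 0 rose. All 9 measured hypothalamic genes had r below 0 with Rora and 7 were called, with -0.330 for Npvf, -0.287 for Crh and -0.275 for Oxt. With Pou4f1 6 of 9 myelin genes fell and 1 rose (Mag, 0.231), and 6 of 9 had negative calls in mice up to 212 and 6 in mice from 213. With 5 components 1 of the 9 had a positive and 0 a negative call on Pou4f1. Over all probes 22.6% had positive and 34.2% negative calls with Rora, and 26.2% and 35.7% with Pou4f1.

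With Calb2 5 of 9 myelin genes rose and 0 fell, among them Cnp (0.357) and Mal (0.288), beside 22.1% of all probes with a positive and 28.2% with a negative call. Of 6 choroid plexus genes 4 rose with Calb2, the folate receptor gene Folr1 (0.321), F5 (0.300), the thyroid hormone carrier gene Ttr (0.279) and Kl (0.217), and 2 fell, Cldn2 (-0.215) and Otx2 (-0.271). Otx2 instead had r = 0.651 with Pou4f1 and 0.462 with Rora. The dopamine synthesis gene Th had 0.506 with Pou4f1, 0.282 with Rora and -0.305 with Calb2.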
